A study of Mus musculus with 6 samples.

Results

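The Z-disc anchors the thin filaments of neighbouring sarcomeres, and the 10 genes described here, Ldb3, Actn2, Csrp3, Tcap, Nexn, Nebl, Myoz2, Sorbs2, Pdlim5 and Synpo2l, encode proteins of that structure. They were taken by name from the 32739 genes of the files, and all 10 were found. RNA was sequenced from HL-1, a contracting atrial myocyte line of the mouse, kept in Claycomb Medium. The design text gives hypoxia of 6 h followed by reoxygenation of 1 h for all 6 libraries. The 3 BRL libraries received 5 µM of BRL37344, which the series describes as a β3-adrenergic receptor agonist, and the 3 controls received vehicle. The labels do not say at which point of the protocol the agonist was added, and HL-1 is a single cell line. They do not say either whether replicates are separate cultures, so p-values measure only the spread between these libraries, and that spread may be technical.

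In the Z-disc, α-actinin crosslinks actin filaments of opposite polarity, titin is fixed at its N-terminal end, and PDZ and LIM domain proteins bind α-actinin and gather kinases and phosphatases. The disc is also a site where load on the myocyte is sensed. Mutations in several of these genes, among them LDB3, ACTN2, CSRP3, NEXN and TCAP in humans, are known from cardiomyopathy.

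The libraries held 4440168 to 5060049 expected counts in vehicle and 6812810 to 8332472 in BRL, so depth did not overlap between the groups. BRL replicate 1 stood apart: mitochondrially encoded transcripts took 5.03% of its counts and 16.5% to 21.9% of the others. Its chi-square statistic per degree of freedom was 89.1 and 76.8 against the other BRL libraries, where other pairs within a group had 1.69 to 4.20. Results are therefore given with and without it. All 10 cardiomyocyte markers had at least 3 counts in every library, and they summed to between 5976 and 6702 CPM (expected counts per library total, TMM-adjusted) in vehicle and between 3357 and 4133 CPM in BRL. Of these, Myh6, Pln and Mybpc3 fell and 7 did not pass, with a median log2 fold change of -0.11 over the 10, where 1.79% of all genes tested fell. The mean of Myh6 was 3336 CPM with vehicle against 1329 CPM with BRL, most of the drop in the sum. Without BRL replicate 1, 3 of the 10 rose (Tnni3, Nkx2-5 and Gata4) and 5 fell, where 10.3% and 10.9% of all genes did. Of markers of other cells, Dcn, Lum and Tcf21 of 8 for fibroblasts, Emcn of 6 for endothelium, Ptprc, Adgre1, Lyz2 and Csf1r of 5 for leukocytes and Myod1 of 7 for skeletal muscle had no counts in any library. Summed fibroblast markers lay between 3.99 and 6.08 CPM in vehicle and between 3.31 and 4.15 CPM in BRL. The 8 smooth muscle markers, of which 6 had at least 3 counts in every library, summed to between 3270 and 3684 CPM in vehicle and between 1367 and 2827 CPM in BRL. Most of that sum was Acta2, with means of 2651 CPM in vehicle and 1677 CPM in BRL, while Myh11 had 0.212 and 0.223 CPM. None of the 6 smooth muscle markers tested passed. Without BRL replicate 1, 4 of these markers fell and none rose, where 10.9% and 10.3% of all genes did. Those of endothelium summed to 3.59 to 6.29 CPM in vehicle and 2.78 to 4.52 CPM in BRL, those of leukocytes to 2.91 to 4.20 and 1.85 to 4.64 CPM, and those of skeletal muscle to 46.2 to 53.3 and 20.9 to 51.0 CPM. The part of these markers, of depth and of BRL replicate 1 in the results was not tested.

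Promoter windows are shown here for the members that fell with BRL and hold a match to the CArG box, the binding motif of serum response factor, or to the MEF2 consensus, which are known regulators of muscle genes. The windows run from 250 bases before to 50 bases after a RefSeq start (build GRCm38.p6), 5′ to 3′ along the gene. Of the 10 genes, 8 had windows, 17 in all; Tcap and Nexn had none. Capitals mark the motif matches, with no overlap between motifs. An overlapping window of Ldb3 with the same CArG box match is not shown. The window of Nebl shown belongs to the most downstream of its 4 starts. Of the genes that fell, Sorbs2 had 3 windows with neither motif, and Nexn had no window. Myoz2, which did not pass, held a MEF2 match and is not shown. A link of these motifs to the change with BRL was not tested. Which start HL-1 cells use was not measured.
Ldb3, chr14:34588632-34588931, strand -: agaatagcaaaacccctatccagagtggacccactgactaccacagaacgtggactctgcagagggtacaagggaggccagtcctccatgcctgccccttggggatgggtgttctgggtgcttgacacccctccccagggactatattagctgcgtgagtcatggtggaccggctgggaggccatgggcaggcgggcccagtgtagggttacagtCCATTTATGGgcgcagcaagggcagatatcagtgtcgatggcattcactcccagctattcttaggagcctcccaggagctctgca
Nebl, chr2:17462807-17463106, strand -: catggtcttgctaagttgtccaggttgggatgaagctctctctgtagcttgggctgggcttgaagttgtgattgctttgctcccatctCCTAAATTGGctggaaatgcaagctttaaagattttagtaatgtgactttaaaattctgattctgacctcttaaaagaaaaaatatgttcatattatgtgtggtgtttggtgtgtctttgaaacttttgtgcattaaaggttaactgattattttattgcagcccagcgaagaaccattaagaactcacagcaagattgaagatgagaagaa
Synpo2l, downstream start, chr14:20664525-20664824, strand -: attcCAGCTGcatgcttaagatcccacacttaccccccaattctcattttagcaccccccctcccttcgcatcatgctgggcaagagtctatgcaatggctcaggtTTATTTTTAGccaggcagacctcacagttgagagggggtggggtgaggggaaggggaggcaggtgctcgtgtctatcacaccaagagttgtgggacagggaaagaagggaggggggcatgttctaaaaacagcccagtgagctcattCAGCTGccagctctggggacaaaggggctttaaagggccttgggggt
Synpo2l, upstream start, chr14:20668305-20668604, strand -: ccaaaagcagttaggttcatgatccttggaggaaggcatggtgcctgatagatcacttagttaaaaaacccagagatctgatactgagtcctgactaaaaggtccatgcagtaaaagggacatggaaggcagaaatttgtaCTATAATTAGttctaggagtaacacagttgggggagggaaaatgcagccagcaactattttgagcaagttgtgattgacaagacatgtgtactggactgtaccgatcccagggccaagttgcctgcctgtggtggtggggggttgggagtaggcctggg

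Motifs were searched on both strands. A CArG box lay in 3 of the 17 windows (the windows of Ldb3 and 1 of 4 of Nebl), against 1.63% of all 32851 promoter windows of 300 bases. The windows of Ldb3 overlap and share the same match, so these 3 windows do not hold 3 separate sites. The MEF2 consensus lay in 3 windows (Myoz2 and both of Synpo2l), against 3.19% of all windows. The myogenic E-box CAGCTG was in 3 of the 17 windows (of Myoz2, Sorbs2 and Synpo2l), against 16.3% of all windows. The GATA site AGATAA was in 2 windows, of Nebl (11.2% of all windows). The M-CAT motif CATTCC was in 1 window, of Nebl (14.7%), and the TATA box TATAAA in 1, of Pdlim5 (13.6%). The full cyclic AMP response element TGACGTCA was in none of the 17 windows and in 1.79% of all. Its half-site TGACG was in 3 windows, of Nebl and Csrp3 (20.8% of all). The window of Actn2 held none of these letters. A match is a description and not a measured binding site.

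With BRL, 5 of the 9 genes that could be tested fell, and none rose. Ldb3, Sorbs2, Nexn, Nebl and Synpo2l lay between 1.91-fold and 2.66-fold lower in BRL than in vehicle. Actn2 and Pdlim5, which encode α-actinin and a partner of it, had vehicle over BRL folds of 1.29 and 1.20 and did not pass, and nor did Csrp3 and Myoz2. By edgeR's quasi-likelihood test at adjusted p under 0.05, 1.79% of all 12047 genes tested were lower and 1.01% were higher. The median log2 fold change was -0.95 over the 9 genes and 0.005 over all genes tested. Tcap fell below the filter on low counts, so the 9 are not the whole list. In a bulk sample, fewer cells of a type and less RNA per cell cannot be told apart.

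**Figure D1:**
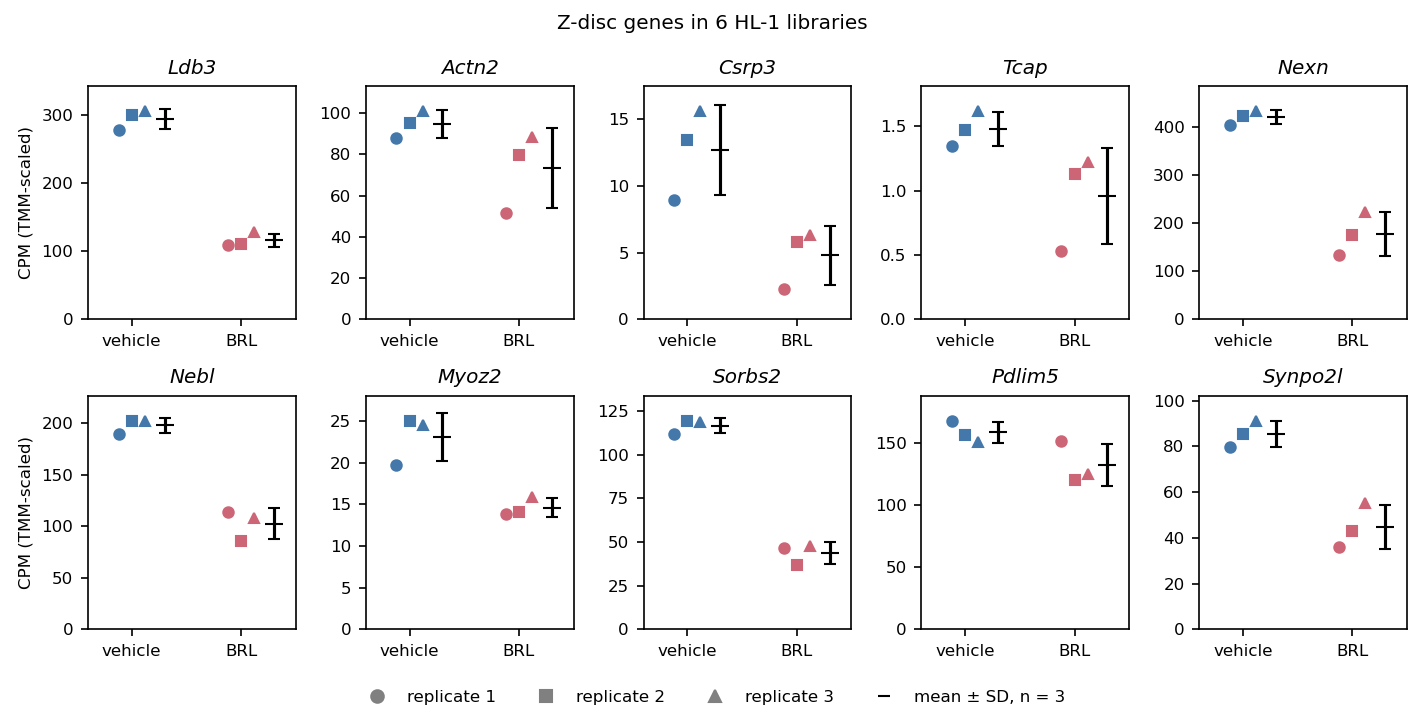
TMM-scaled CPM of each of the 10 Z-disc genes in the 6 libraries, with symbols for the replicates and bars for the mean ± SD (n = 3). Every BRL library of Ldb3 is at or below 127.8 CPM and every vehicle library at or above 278.5 CPM, while Actn2 and Pdlim5 overlap between the groups.

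In 7 of the 9 genes tested, every BRL library lay below every vehicle library, where 15.5% of all genes tested did. Tcap, which was not tested, had the same order in CPM. Its expected counts, 6, 7 and 8 in vehicle and 4, 8 and 10 in BRL, overlapped between the groups. The median of the 9 genes, as log2 of CPM plus 0.5 over the vehicle mean, was -1.24, -1.07 and -0.87 in BRL replicates 1, 2 and 3. It was between -0.08 and 0.05 in the vehicle libraries. BRL replicate 1 was the lowest of the BRL libraries in 7 genes and the highest in 2, Nebl and Pdlim5. In 8 genes BRL replicate 3 was the highest.

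Actn2 encodes sarcomeric α-actinin, the crosslinker on which the other proteins assemble. It had 87.9, 95.2 and 101.1 CPM in vehicle replicates 1, 2 and 3 and 51.4, 79.8 and 88.5 CPM in BRL replicates 1, 2 and 3. BRL replicate 3 overlapped vehicle, and BRL replicate 1 was the low value. The log2 fold change was -0.37 ± 0.19 (SE, n = 3 in each group) with edgeR adjusted p = 0.277. When BRL replicate 1 was left out it was -0.17 with adjusted p = 0.182. Its count in 1 library was not a whole number, as RSEM gives where reads match more than 1 locus.

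Among the PDZ-LIM proteins, Ldb3 (ZASP or Cypher), which binds α-actinin and protein kinase C, had 278.5, 300.2 and 306.5 CPM in vehicle and 109.9, 110.9 and 127.8 CPM in BRL. The groups were far apart and the BRL libraries close together. The log2 fold change was -1.34 ± 0.10 by edgeR (adjusted p = 0.00145), and with BRL replicate 1 left out it was -1.30 ± 0.08 (adjusted p = 2.4e-07). Pdlim5 (ENH), a relative of Ldb3 with the same domain types, had 167.9, 156.9 and 151.0 CPM in vehicle and 151.4, 120.4 and 124.7 CPM in BRL. Here BRL replicate 1 was the highest of the BRL libraries and fell within the vehicle range. Its log2 fold change was -0.26 ± 0.11 with edgeR adjusted p = 0.221. In the fit that left out BRL replicate 1, Pdlim5 fell (log2 fold change -0.37 ± 0.07) with adjusted p = 0.00344.

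Myoz2 encodes calsarcin-1, which tethers the phosphatase calcineurin to α-actinin. It measured 19.7, 25.0 and 24.5 CPM in vehicle and 13.8, 14.1 and 15.9 CPM in BRL. The groups did not overlap, but the gene missed the threshold (log2 fold change -0.66 ± 0.15, edgeR adjusted p = 0.0517). It fell when BRL replicate 1 was left out (-0.62 ± 0.14) with adjusted p = 0.00869. Synpo2l (CHAP), an actin-associated protein of the Z-disc in heart and skeletal muscle, had 79.8, 85.4 and 91.2 CPM in vehicle and 36.0, 43.1 and 55.1 CPM in BRL. Its groups were apart and it fell by 0.93 ± 0.16 on the log2 scale (edgeR adjusted p = 0.0211). With BRL replicate 1 left out the change was -0.79 (adjusted p = 0.000217). The call was lost without vehicle replicate 1, 2 or 3 or BRL replicate 2, with adjusted p of 0.0854, 0.121, 0.146 and 0.0703.

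Csrp3 and Tcap belong to the titin anchor of the Z-disc. Csrp3 encodes muscle LIM protein, and Tcap encodes telethonin, which links the ends of titin molecules. Csrp3 had 8.97, 13.4 and 15.6 CPM in vehicle and 2.25, 5.77 and 6.35 CPM in BRL. These values rest on 17 to 77 expected counts, and BRL replicate 1, with 17, was the lowest. The groups did not overlap, yet the gene did not pass (-1.40 ± 0.37 on the log2 scale, edgeR adjusted p = 0.0799), and its SE was the widest of the 9. Leaving out BRL replicate 1 brought it past the threshold (-1.06 ± 0.23) with adjusted p = 0.00662. Tcap had 6, 7 and 8 expected counts in vehicle and 4, 8 and 10 in BRL, or 1.35, 1.47 and 1.62 CPM against 0.529, 1.13 and 1.22 CPM. At this depth Tcap was below the filter on low counts, and its change was not tested in the fit over all genes. Its ratio to Actn2 is given further on.

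Nexn and Nebl had the highest levels per length of the 10 genes in vehicle, given in TPM further on. Nexn encodes nexilin, which binds filamentous actin at the Z-disc, and had 405.2, 423.6 and 434.4 CPM in vehicle and 134.1, 176.1 and 224.2 CPM in BRL. Every BRL library was well below vehicle, with more spread among the BRL libraries. The log2 fold change was -1.24 ± 0.17 by edgeR (adjusted p = 0.00979), and with BRL replicate 1 left out it was -1.07 ± 0.09 (adjusted p = 5.5e-06). Nebl encodes nebulette, the cardiac relative of nebulin, and had 189.5, 201.6 and 202.1 CPM in vehicle and 113.7, 85.7 and 108.1 CPM in BRL. The groups were apart, and BRL replicate 1 was the highest of its group. Nebl fell by 0.95 ± 0.12 on the log2 scale (edgeR adjusted p = 0.00676), with -1.02 ± 0.09 without BRL replicate 1 (adjusted p = 7.8e-06). Both calls were lost without vehicle replicate 1, 2 or 3. The adjusted p values were then 0.0591, 0.0693 and 0.0819 for Nexn and 0.0508, 0.0666 and 0.0753 for Nebl. A count of Nebl was not whole in 1 library, and exons of Nexn overlap another annotated gene, Gm43185.

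Sorbs2 (ArgBP2) is an adaptor with SH3 domains found at Z-discs and intercalated discs. It had 111.7, 119.4 and 118.6 CPM in vehicle and 46.7, 36.6 and 47.9 CPM in BRL. The vehicle values were close together, and the highest BRL value lay far below the lowest of them. Its log2 fold change of -1.41 ± 0.12 (edgeR adjusted p = 0.00189) was within its SE of that of Csrp3, and it was -1.45 ± 0.10 without BRL replicate 1 (adjusted p = 1.1e-06). Counts of Sorbs2 were not whole in 4 libraries, and its exons overlap the antisense gene Sorbs2os, whose reads cannot be told apart without strand. Of the 5 genes that fell, Ldb3 and Sorbs2 passed in all 20 alternatives tried.

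Without BRL replicate 1, 8 of the 9 genes were lower and none higher, and Actn2 was the exception. In that fit 10.9% of all 12064 genes tested were lower and 10.3% higher, so calls were more frequent throughout. The median of the 9 genes was -1.02, against 0.003 over all genes of that fit.

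**Figure D2:**
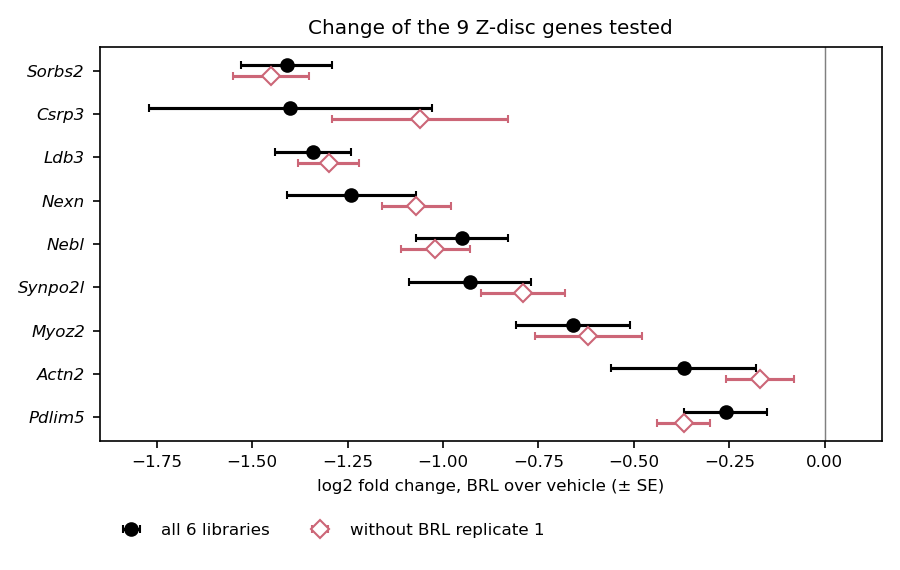
Log2 fold change (BRL over vehicle, ± SE) of the 9 Z-disc genes tested, with all 6 libraries (filled circles) and without BRL replicate 1 (open diamonds). All 9 lie below 0 in both fits, from -1.41 for Sorbs2 to -0.26 for Pdlim5 with all libraries.

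Levels of different genes were compared per transcript length, as TPM (the deposited RSEM fraction, corrected for length, on a common total). In vehicle Nexn was the most abundant with 255.4 ± 4.63 TPM (SD, n = 3), followed by Nebl with 134.9 ± 5.43, Ldb3 with 94.4 ± 1.13 and Pdlim5 with 68.8 ± 5.78. Sorbs2 (54.3 ± 5.83) and Actn2 (49.5 ± 2.65) overlapped each other. So did Synpo2l (35.6 ± 1.58) with Myoz2 (32.0 ± 3.48), and Myoz2 with Csrp3 (24.1 ± 5.83), and Tcap was lowest with 2.56 ± 0.18. The order of the means changed in the middle of the list with BRL, in part among genes whose libraries overlapped. Ldb3, at 38.8 ± 7.13, went from the third place in vehicle to the fifth and overlapped Actn2, which moved from the sixth to the fourth with 39.0 ± 4.61. Sorbs2 went from the fifth place to the seventh with 20.5 ± 4.55, where it overlapped both Myoz2 (21.8 ± 3.70) and Synpo2l (19.3 ± 2.97). Nexn (111.2 ± 17.5), Nebl (79.9 ± 25.6) and Pdlim5 (59.8 ± 20.5) had the highest means in BRL, with overlapping neighbours, Pdlim5 having been the fourth in vehicle. The lowest places remained with Csrp3 (9.06 ± 3.11) and Tcap (1.66 ± 0.42).

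**Figure D3:**
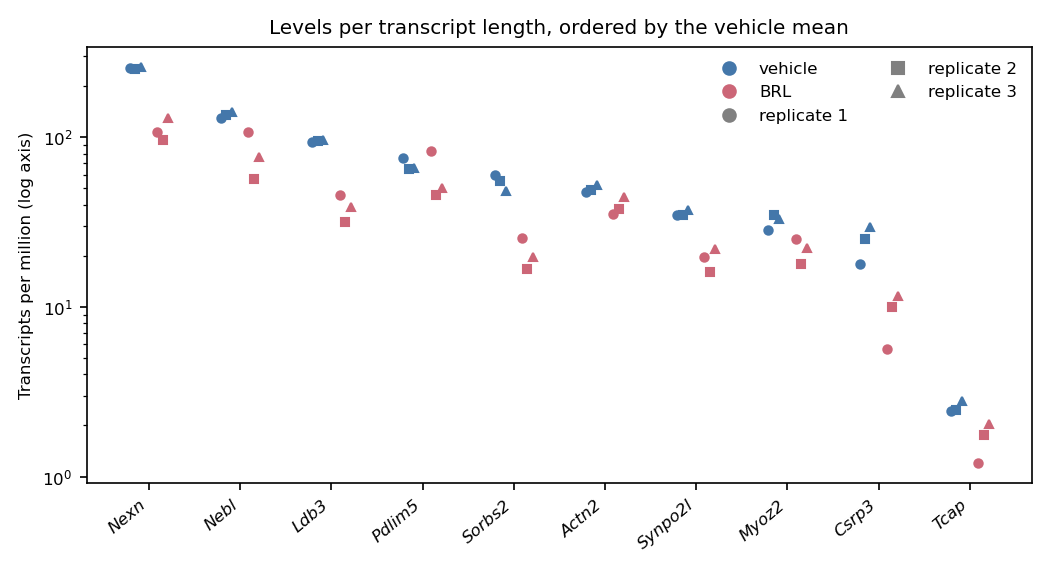
TPM (log axis) of the 10 Z-disc genes in each library, ordered by the vehicle mean, with vehicle in blue and BRL in red. Nexn leads in vehicle at 255.4, and in BRL the points of Ldb3 overlap those of Actn2, and the points of Sorbs2 those of Myoz2.

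Together the 10 genes made up 744.3, 746.3 and 764.4 TPM in vehicle and 455.6, 329.7 and 417.3 in BRL. The means were 751.7 ± 11.1 and 400.9 ± 64.5. The BRL libraries were all below vehicle, and BRL replicate 1 was the highest of them on this scale. The total behind TPM includes the mitochondrial transcripts, and their part in this order was not tested.

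RNA changes of the genes relative to Actn2 were read from count ratios inside each library, which do not depend on library scaling. The counts were not corrected for transcript length, so a ratio is not a ratio of molecules. Ldb3 had log2 count ratios to Actn2 of 1.66, 1.66 and 1.60 in vehicle and 1.10, 0.47 and 0.53 in BRL. The difference was -0.94, with no overlap between groups. The same held for Csrp3 (-1.08), Sorbs2 (-1.01), Nexn (-0.86), Synpo2l (-0.55) and Tcap (-0.30). These 6 had p = 0.1 in a two-sided exact permutation test, the smallest that 3 libraries against 3 can give, and p = 0.15 after Benjamini-Hochberg adjustment over the 9 ratios. The design could not reach 0.05. The ratio of Tcap rests on 4 to 10 expected counts of Tcap in each library. Nebl (-0.55, exact p = 0.4), Myoz2 (-0.25, exact p = 0.4) and Pdlim5 (0.14, exact p = 0.9) overlapped between groups. All 9 ratios share Actn2 as denominator, so they are not independent of each other. In 7 of the 9 ratios, all but those of Csrp3 and Tcap, BRL replicate 1 had the highest value of the BRL libraries. Actn2 itself had 51.4 CPM in BRL replicate 1, against 79.8 and 88.5 CPM in BRL replicates 2 and 3. Without BRL replicate 1 the differences were -0.87 for Nebl, -0.45 for Myoz2 and -0.20 for Pdlim5.

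**Figure D4:**
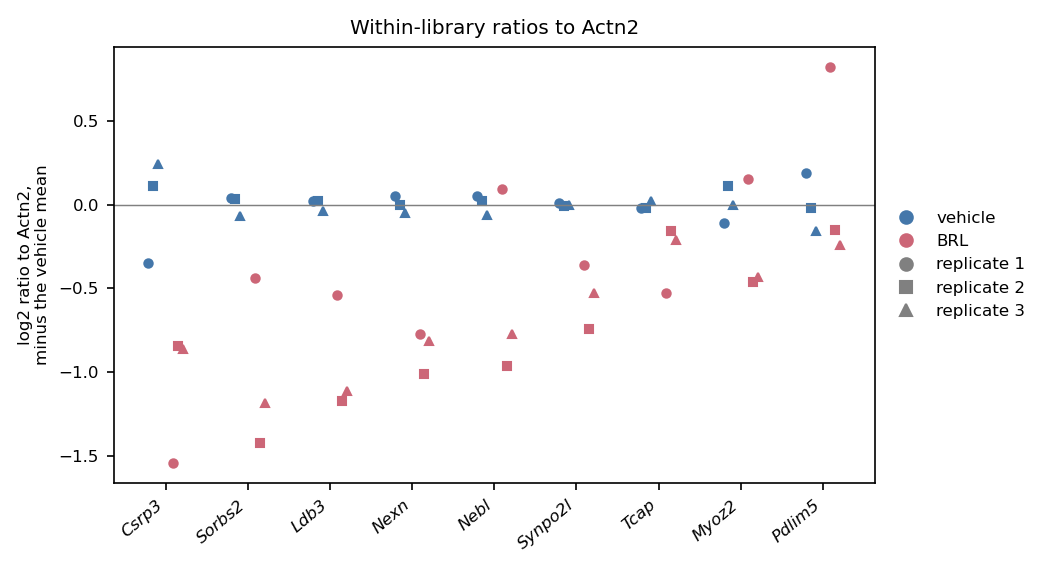
Log2 ratio of expected counts of each gene to Actn2 in every library, minus the vehicle mean, ordered by the difference between groups. Vehicle libraries lie near 0, and in 6 genes all BRL libraries lie below them. BRL replicate 1 is the highest BRL library in 7 of the 9 ratios, which all share Actn2 as denominator. It lies above every vehicle library for Nebl, Myoz2 and Pdlim5.

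Other genes of the Z-disc and paralogs were taken from 3 lists. Of 28 further Z-disc genes, 24 were tested. Palld fell, Mypn rose and 22 did not pass, with log2 fold changes from -0.71 (Ttn) to 0.45 (Synpo); the list's median was -0.13. Over all genes 1.79% fell and 1.01% rose, so 1 gene in each direction of 24 is near that share. Myot and Xirp2 had no counts in any library, and Myoz1 and Myoz3 were below the filter. Palladin and myopalladin, encoded by Palld and Mypn, are both actin-associated scaffolds with immunoglobulin domains. Palld had 30.5, 44.1 and 35.7 CPM in vehicle and 15.4, 17.5 and 18.9 CPM in BRL, a log2 fold change of -1.09 ± 0.16 (edgeR adjusted p = 0.0123). Mypn, which binds nebulette and α-actinin, had 4.04, 6.50 and 5.47 CPM in vehicle and 11.4, 12.7 and 12.7 CPM in BRL. Its groups lay apart in the opposite direction, by 1.19 ± 0.21 (edgeR adjusted p = 0.0265), on 18 to 104 counts. The call of Palld was lost without vehicle replicate 2 or 3 (adjusted p of 0.0719 and 0.0841). That of Mypn was lost without any vehicle library or BRL replicate 2 or 3 (adjusted p from 0.0703 to 0.155). With BRL replicate 1 left out, Mypn rose by 1.24 and Palld fell by 1.01 on the log2 scale (adjusted p of 0.00131 and 0.000367), and 4 of the 24 rose and 5 fell, where 10.3% and 10.9% of all genes did.

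Of 20 genes of Z-disc signalling and turnover, 15 were tested; 2 fell and none rose, where 1.79% of all genes fell and 1.01% rose. The list's median was -0.32, against 0.005 over all genes. Trim55 (MuRF2), a muscle ubiquitin ligase, had 25.1, 30.6 and 28.2 CPM in vehicle and 11.5, 11.4 and 12.5 CPM in BRL. The BRL libraries were close together and below vehicle (log2 fold change -1.24 ± 0.13, edgeR adjusted p = 0.00391). Fhl2, a LIM-only adaptor that binds titin, had 344.9, 369.2 and 368.7 CPM in vehicle and 149.7, 215.7 and 249.5 CPM in BRL. It lay close to the threshold (-0.82 ± 0.17, edgeR adjusted p = 0.0478). The Fhl2 call was lost with upper-quartile factors (0.0602) and without any vehicle library or BRL replicate 2 (0.112 to 0.228). The others, calcineurin and protein kinase C genes among them, ranged from -0.89 (Fbxl22) to 0.43 (Prkd1). When BRL replicate 1 was left out, 9 of the 15 fell and none rose, where 10.9% of all genes tested fell and 10.3% rose.

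Of 19 paralogs of the 10 genes, 15 were tested and 4 are described here. Actn1 and Actn4, the α-actinins of non-muscle cells, had -0.12 ± 0.20 and -0.33 ± 0.13 and did not pass (edgeR adjusted p of 0.763 and 0.192). Csrp1 and Csrp2, relatives of Csrp3, had 0.14 ± 0.21 and -0.27 ± 0.17 (adjusted p of 0.732 and 0.384). With BRL replicate 1 left out, Csrp1 rose (0.37, edgeR adjusted p = 0.00507) and Actn4 fell (-0.20, adjusted p = 0.0491). In that fit 10.3% of all genes tested rose and 10.9% fell.

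**Figure D5:**
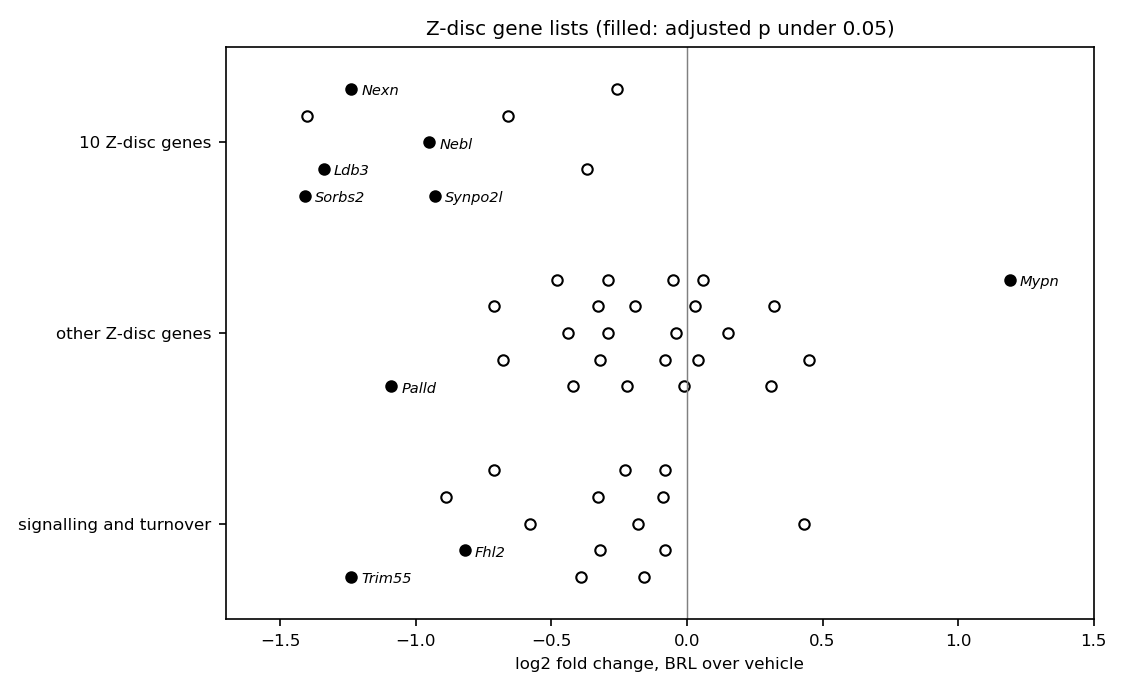
Log2 fold change (BRL over vehicle) of tested genes in 3 lists: the 10 Z-disc genes, other Z-disc genes, and signalling and turnover, each point a gene, filled and named where edgeR's adjusted p was under 0.05; vertical offsets within a list only separate the points. Mypn, at 1.19, is the filled point above 0.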

How the data were processed

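RNA from 3 vehicle and 3 BRL libraries of HL-1 cells was prepared with the TruSeq RNA kit, per the labels' protocols. The authors deposited RSEM expected counts and a length-corrected RSEM fraction per gene. Cutadapt, Bowtie, RSEM 1.17, edgeR and build NCBIM37 are named in the submitters' processing notes; their settings and the use of strand are not given. The authors' deposited series table of 13863 genes holds log2 values and served as an alternative with limma.

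Expected counts, rounded to whole numbers, entered edgeR 4.0.16 under R 4.3.3 (filterByExpr, minimum count 10, TMM factors, quasi-likelihood F-test, group as the only term). P-values were adjusted after Benjamini and Hochberg over 12047 genes, with a threshold of 0.05. The SE was taken as the size of the log2 change divided by √F. The deposited fraction was rescaled to TPM. Ratios to Actn2 had 0.5 added to each count. A count was called whole within 0.005. Symbols matched 88.4% of all genes and 96.9% of tested genes. Exon overlap, transcript length and GC came from GENCODE M21, which is on another build than NCBIM37. Exon overlap was read from the coordinates of that other build.

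Alternatives were other library factors, filters and rounding, mitochondrial genes removed, DESeq2 1.42.0, limma-voom (limma 3.58.1), edgeR's exact test, a replicate block, length and GC trends removed, and each library left out. The analysis of the authors' log2 values, and that of the length and GC trend without BRL replicate 1, were chosen after seeing the data. Genes named were all 10 members and, of each list, those past the threshold and the gene of smallest p; Actn1, Actn4, Csrp1, Csrp2 and those at the ends of ranges lie outside this rule, picked once their values were known. Some results on paralogs are not reported here. The members and lists were chosen with earlier results of these data known, so no test was made over a list. Depth limits low genes: the floor of 3 counts is 0.360 to 0.676 CPM, covering counting error only.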

Additional observations from a re-analysis of the deposited data

How the results depend on the processing

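Of the 9 Z-disc genes tested, 5 were lower in the analysis as reported. No member was higher under any of the 20 alternatives, and the median log2 fold change of the members stayed between -1.11 and -0.86. Leaving out 1 library gave from 2 to 8 members lower, with 2 without any of vehicle replicates 1, 2 and 3 and 8 without BRL replicate 1; the cause was not tested. Over all genes, leaving out 1 library gave from 17 to 1240 higher and from 15 to 1315 lower, against 122 and 216. The other counts that moved by over 1.5 times were 77 genes higher with total counts only, 282 higher and 330 lower with no filter, 246 and 355 with DESeq2, 418 and 527 with edgeR's exact test, and 891 and 848 with the length and GC trend removed and BRL replicate 1 left out. With a replicate block, 63 genes were higher, 150 lower and 6 members lower, Csrp3 being added with adjusted p = 0.0354. Deviations of same-numbered libraries correlated by 0.10, -0.05 and -0.04, so the numbers were not taken as pairs. Csrp3 and Myoz2 each passed in 6 of the 20 alternatives (adjusted p from 0.0035 to 0.314 and from 0.00513 to 0.252) and Pdlim5 in 1. The Pdlim5 to Actn2 log2 ratio difference of 0.14 ranged from -0.20 to 0.33 when 1 library was left out, with the negative value without BRL replicate 1. Low counts limit Csrp3 and Tcap.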
